A study of Homo sapiens with 6 samples.

Results

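Integrins, laminins and collagens were followed in the HT-29 colon adenocarcinoma line and in the bortezomib-selected variants BR200 and BR100. The set was defined by gene symbol: the integrin alpha and beta chains, the laminin alpha, beta and gamma chains and the collagen alpha chains. Only probe sets that the array's annotation assigned to a single gene were used. The rule found 212 probe sets for 79 genes, of 19775 genes on the array named in this way. Among them were 26 integrin genes (ITGBL1, an integrin-beta-like gene, included), 10 laminin genes and 43 collagen genes. Expression was high enough to test for 22 of the 79, of 10370 genes tested in all.

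Total RNA of BR200, BR100 and wild type HT-29 cells was hybridised to Affymetrix human arrays, with 2 arrays per variant and 6 in all. Bortezomib blocks the proteasome. Per the labels, cells were kept in drug that was stepped up between 20 and 300 nM over 7 months, and clones were isolated by limiting dilution under 100 or 300 nM for 4 further months. That text is attached to all samples, the wild type ones included, and does not tie BR200 to a cloning dose or say whether drug was present at harvest. BR200 and BR100 therefore stand for clonal isolates, and a difference between them cannot be told apart from a difference between any clones. Each variant has an array labelled with the 3' IVT Express kit (100 ng of RNA) and an array labelled with the One-Cycle kit (3 ug). The labels do not name separate cultures, so the p-values measure only the spread between these arrays, which may be technical. The values are log2 expression as deposited. Wherever a pair of array values is given, the Express array comes first and the One-Cycle array after it.

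Integrins are paired alpha and beta receptor chains that span the membrane and tie the extracellular matrix to the actin or keratin cytoskeleton. Laminins are three-chain proteins of the basement membrane, the sheet beneath an epithelium. Collagens form its network and the fibrils below it. Colon epithelium holds itself to laminin largely through the ITGA3-ITGB1 and ITGA6-ITGB4 receptors, of which ITGA6-ITGB4 sits in hemidesmosomes, and binds collagen through ITGA1-ITGB1 and ITGA2-ITGB1.

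The arrays were alike in detection, with 10063 to 10193 genes at a log2 value of 4 or more. All of them shared a lowest value of 2.23, at which 34.8 to 35.3% of the probe sets lay. The gap between the 3' and 5' ACTB control probe sets, a measure of RNA or labelling length, was 3.24 and 1.76 on the BR200 arrays, 3.03 and 1.86 on the BR100 arrays, and 4.22 and 2.995 on the wild type arrays. It was thus smaller in both selected variants than in wild type within each kit, and its part in the results below was not tested. The epithelial markers EPCAM and KRT18 lay above 14 on all arrays, while the intestinal regulators CDX2 and CDX1 were at or near background on all of them (2.23 and 2.91 at most). The epithelial marker list averaged 10.86 to 10.88 in BR200, 10.80 to 10.82 in BR100 and 11.17 to 11.23 in wild type. Of its 7 tested genes, 3 (CDH1, KRT20 and VIL1) were lower in each selected variant. Among all genes 31.2% were lower in BR200 and 31.8% in BR100. Of the 9 fibroblast markers, DCN, LUM, PDGFRA, PDGFRB, THY1, FAP and POSTN were at or near background on all arrays (2.40 at most), and the list averaged 2.74 to 2.89 in BR200, 2.64 to 2.70 in BR100 and 2.61 to 2.73 in wild type. The other 2 went different ways. ACTA2 was 4.82 and 5.94 in BR200, 4.88 and 5.67 in BR100, and 3.82 and 4.69 in wild type, and TAGLN was 4.21 and 4.41 in BR200, 3.03 and 2.95 in BR100, and 4.02 and 4.16 in wild type (-1.10 in BR100, adjusted p = 0.000946). The blood markers PTPRC, CD3E, MS4A1 and SPI1 were at the lowest value; their list averaged 5.00 to 5.05 in BR200, 4.86 to 4.90 in BR100 and 4.80 to 4.81 in wild type through LYZ and CD14. None of the 4 endothelial and 4 platelet markers reached the filter. Their levels are those of the whole culture, in which fewer cells that express a gene and less RNA per cell cannot be told apart.

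Most of the 79 genes gave no measurable signal in HT-29 cells, and 51 stayed under a log2 value of 3 on every array. The tested genes were 10 integrins, 4 laminins and 8 collagens, where testing required a value of 4 or more on at least 2 arrays. COL1A2 and COL3A1, chains of the type I and III collagens of connective tissue, were at background and reached 2.24 and 2.23 at most, while COL1A1 was read on 1 of its probe sets (below). COL4A1, a chain of the basement membrane collagen network, read 2.23 on all arrays. None of the 6 microfibril collagens and none of the 3 transmembrane collagens was tested; COL13A1, a transmembrane collagen, read 3.39 throughout. Integrins of white blood cells were likewise at background: ITGAL, ITGAM, ITGAX, ITGB2, ITGAD and ITGA4 read 2.45 at most. Just below the filter lay ITGA5, the fibronectin receptor chain, at 3.75 and 3.80 in BR200, 3.75 and 3.85 in BR100, and 3.75 and 3.71 in wild type. ITGB7, the partner of ITGAE, lay there too, at 3.79 and 3.79 in BR200, 3.42 and 3.79 in BR100, and 3.81 and 4.48 in wild type. LAMB2 read 3.53 and 3.04 in BR200, 3.04 and 3.04 in BR100, and 3.04 and 2.97 in wild type. COL8A1 and COL7A1 were just inside it, with values given below. LAMA3, COL17A1 and ITGB6 were not analysed here, ITGB6 because its 4 probe sets also name LINC02478.

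Against wild type, more of the 22 genes were lower than higher in each selected variant. Changes are differences of fitted log2 values with limma's standard error (SE), and a gene was called at a limma adjusted p under 0.05 over all genes tested. In BR200, 5 genes were higher (22.7%), 8 lower (36.4%) and 9 not called, against 35.4% higher and 31.2% lower among all genes. In BR100, 2 were higher (9.09%), 11 lower (50.0%) and 9 not called, against 36.7% higher and 31.8% lower among all genes. The members' median change was -0.21 in BR200 and -0.23 in BR100, where the median of all genes was 0.04 in both. Changes of at least 2-fold were called for 5 members in each variant (22.7%), near the 23.7% of all genes in BR200 and the 25.7% in BR100. COL8A1 passed the filter through BR200 alone and had to differ; without it 4 of 21 were higher in BR200, and 4 were called at 2-fold or more. The share of changed members was thus no higher than that of genes in general. Whether their direction departs from that of all genes was not tested, and LAMC1 and ITGA1 turn with the probe set. Without the kit as a block the counts of called members were 8 in BR200 and 7 in BR100, in place of 13 in each. BR200 and BR100 share their wild type arrays, so their agreement is not independent.

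**Figure D1:**
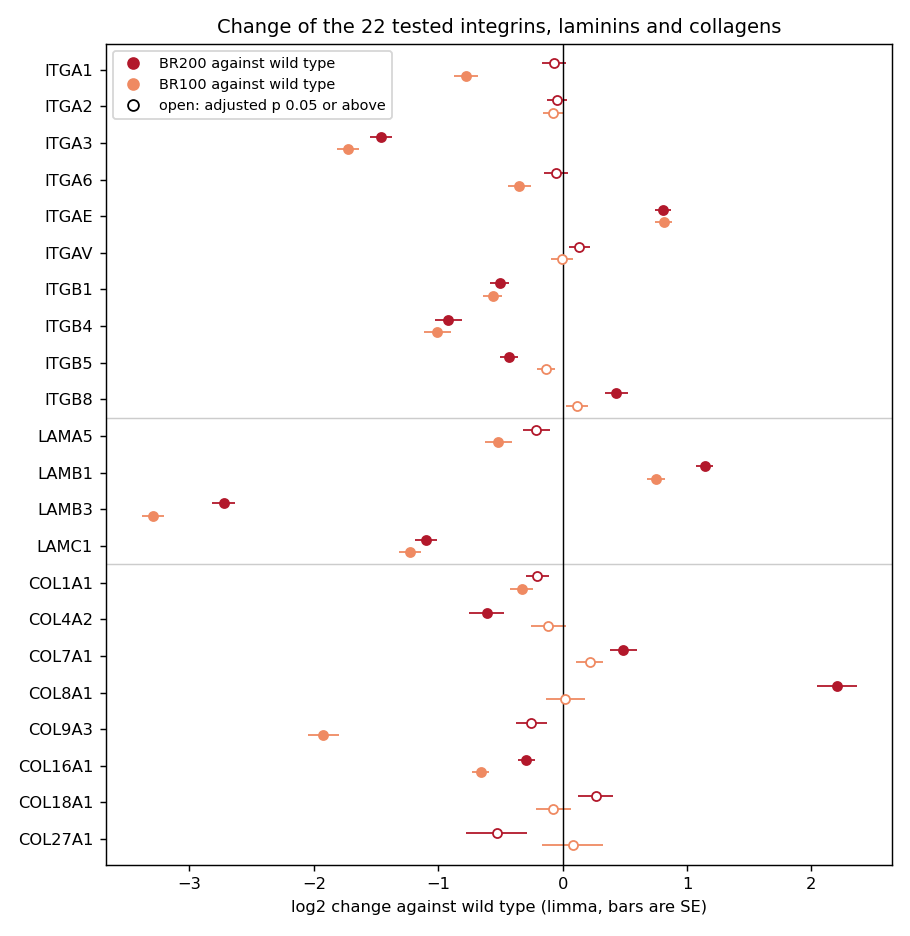
Log2 change against wild type of the 22 tested genes in BR200 (upper mark of each pair) and BR100 (lower mark), with limma SE; open marks had an adjusted p of 0.05 or more. LAMB3, ITGA3 and LAMC1 lie far to the left in both variants, while COL9A3 does so in BR100 alone and COL8A1 lies to the right in BR200 alone. Each gene is shown on the probe set used for it, and another LAMC1 probe set was called higher in both variants.

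Among the integrin alpha chains, the laminin receptor chain ITGA3 was lower in both selected variants, and ITGAE was higher in both. ITGA3 (chr17:50056110-50090481, GRCh38.p14 as are all positions here) read 7.50 and 8.13 in BR200, 7.13 and 7.97 in BR100, and 8.96 and 9.59 in wild type. The selected variants did not overlap wild type, and the difference held within each kit. The change was -1.46 in BR200 (SE 0.0855, adjusted p = 0.000389), a 2.75-fold fall, and -1.72 in BR100 (SE 0.0855, adjusted p = 0.00025), a 3.31-fold fall. ITGAE (chr17:3714628-3801188), whose product pairs with that of ITGB7 and binds E-cadherin, read 10.94 and 10.54 in BR200, 10.96 and 10.53 in BR100, and 10.13 and 9.75 in wild type. The selected variants lay above wild type within each kit and over all arrays. It rose by 0.80 in BR200 (SE 0.065, adjusted p = 0.000832) and by 0.81 in BR100 (SE 0.065, adjusted p = 0.000737). Both ITGAE calls were lost without the kit block.

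The second laminin receptor chain, ITGA6, was called in BR100 only. It read 12.40 and 12.69 in BR200, 12.24 and 12.27 in BR100, and 12.57 and 12.63 in wild type. Only the BR100 arrays lay wholly below wild type, with a change of -0.35 (SE 0.0933, adjusted p = 0.0277; called in 8 of 14 alternative settings), against -0.05 in BR200 (adjusted p = 0.645), and the difference between the variants was itself not called (0.30, adjusted p = 0.122). A second ITGA6 probe set was not called in either variant (0.07 in BR200, adjusted p = 0.627, and -0.20 in BR100, adjusted p = 0.173). ITGAV, the alpha chain of the vitronectin and fibronectin receptors, read 12.30 and 12.25 in BR200, 12.09 and 12.19 in BR100, and 12.05 and 12.24 in wild type. Its groups overlapped and neither change was called (0.13 in BR200 and -0.01 in BR100).

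The collagen receptor chains ITGA1 and ITGA2 lie side by side on chromosome 5. ITGA2 (chr5:52989352-53094779) read 10.93 and 11.08 in BR200, 10.84 and 11.10 in BR100, and 10.88 and 11.21 in wild type, with changes of -0.04 in BR200 and -0.08 in BR100 that were not called. A second ITGA2 probe set was lower in BR200 (-0.33, SE 0.0917, adjusted p = 0.0379) and not called in BR100 (-0.24, adjusted p = 0.087). ITGA1 (chr5:52787916-52959209) read 7.56 and 7.36 in BR200, 6.75 and 6.76 in BR100, and 7.48 and 7.58 in wild type. BR100 stood alone below the other variants, with a change of -0.78 against wild type (SE 0.0981, adjusted p = 0.00271), while BR200 differed from wild type by -0.07 (adjusted p = 0.563). A second ITGA1 probe set ran the other way, with 6.68 and 7.09 in BR200, 6.27 and 6.26 in BR100, and 5.14 and 5.92 in wild type. It was called higher in BR200 by 1.36 (SE 0.206, adjusted p = 0.00712) and in BR100 by 0.74 (SE 0.206, adjusted p = 0.0371). The direction of ITGA1 against wild type is therefore not settled by these arrays, although both probe sets read higher in BR200 than in BR100.

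The beta chains of the laminin receptors were lower in both selected variants. ITGB1 (chr10:32900318-32958230), the common partner of the laminin and collagen receptor alpha chains, read 13.92 and 14.17 in BR200, 13.89 and 14.09 in BR100, and 14.50 and 14.60 in wild type. The selected variants lay below wild type without overlapping it, and the change was -0.51 in BR200 (SE 0.0753, adjusted p = 0.00477) and -0.56 in BR100 (SE 0.0753, adjusted p = 0.00324). ITGB4 (chr17:75721459-75757818), the hemidesmosome chain, read 8.56 and 9.37 in BR200, 8.55 and 9.20 in BR100, and 9.66 and 10.10 in wild type. The selected variants overlapped each other but not wild type. It fell by 0.92 in BR200 (SE 0.109, adjusted p = 0.00244) and by 1.01 in BR100 (SE 0.109, adjusted p = 0.00172). The ITGB4 calls were lost without the kit block (adjusted p = 0.119 in BR200 and 0.0928 in BR100), where the gap between kits enters the error.

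The beta chains that pair with ITGAV differed from each other. ITGB8, which pairs only with ITGAV, read 10.36 and 10.27 in BR200, 10.08 and 9.92 in BR100, and 9.84 and 9.93 in wild type. BR200 lay above wild type by 0.43 (SE 0.0895, adjusted p = 0.0131; called in 10 of 14 alternative settings), and the BR100 change of 0.12 was not called (adjusted p = 0.298). ITGB5 (chr3:124761948-124901418) read 11.77 and 12.06 in BR200, 12.10 and 12.32 in BR100, and 12.26 and 12.42 in wild type. BR200 was lower (log2 change -0.43, SE 0.0708, adjusted p = 0.0066; called in 12 of 14 alternative settings), and the BR100 change of -0.13 was not called (adjusted p = 0.159). Another ITGB5 probe set moved more, with 8.23 and 7.97 in BR200, 8.01 and 7.91 in BR100, and 9.71 and 9.63 in wild type, which gives changes of -1.57 in BR200 (adjusted p = 0.000729) and -1.71 in BR100 (adjusted p = 0.000534). The ITGB5 probe sets thus shared a direction but not a size.

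**Figure D2:**
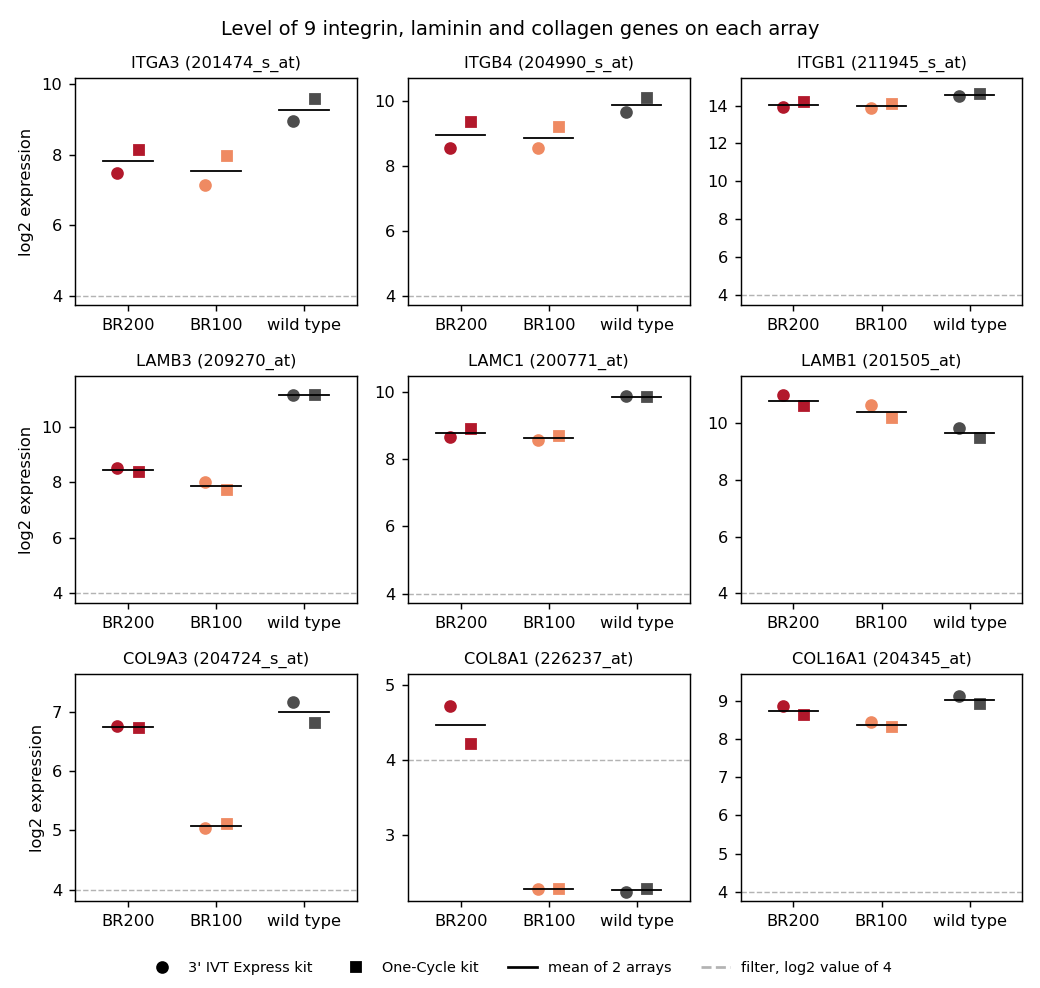
Deposited log2 expression of 9 genes on each array of BR200, BR100 and wild type; circles are 3' IVT Express arrays, squares One-Cycle arrays, bars the mean of the 2 arrays, and the dashed line the filter at 4. On the probe set used for each gene, LAMB3, ITGA3 and LAMC1 are lower and LAMB1 is higher in both selected variants. Another LAMC1 probe set, not drawn here, was called higher in both. COL9A3 is low in BR100 alone, and COL8A1 passes the filter in BR200 alone.

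Among the 22 tested genes the largest change against wild type was that of a laminin chain. LAMB3 (chr1:209614870-209652425), a beta chain of the laminin of epithelial hemidesmosomes, read 8.51 and 8.36 in BR200, 8.004 and 7.73 in BR100, and 11.16 and 11.16 in wild type. The selected variants lay far below wild type, and the gap was many times the distance between arrays of a variant. It was lower by 6.61-fold in BR200 (log2 change -2.72, SE 0.0917, adjusted p = 0.000157) and by 9.81-fold in BR100 (log2 change -3.29, SE 0.0917, adjusted p = 9.65e-05). LAMB1 (chr7:107923799-108003161), the beta chain of the more widespread basement membrane laminins, went the opposite way. It read 10.99 and 10.59 in BR200, 10.62 and 10.18 in BR100, and 9.81 and 9.48 in wild type. The increase was 2.21-fold in BR200 (log2 change 1.14, SE 0.0698, adjusted p = 0.000432) and 1.68-fold in BR100 (log2 change 0.75, SE 0.0698, adjusted p = 0.00112). The BR100 call was lost without the kit block (adjusted p = 0.0605). A second LAMB1 probe set was also higher, by 1.39 in BR200 and 0.83 in BR100.

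The chains that join LAMB1 in those laminins did not rise with it on the probe sets used. LAMC1 (chr1:183023420-183145592), the common gamma chain, read 8.65 and 8.89 in BR200, 8.58 and 8.70 in BR100, and 9.87 and 9.86 in wild type, where only wild type stood apart. The change was -1.09 in BR200 (SE 0.0883, adjusted p = 0.000831) and -1.22 in BR100 (SE 0.0883, adjusted p = 0.000571). Its other probe set was higher in the selected variants, at 7.88 and 8.13 in BR200, 8.22 and 8.50 in BR100, and 7.25 and 7.78 in wild type. That probe set changed by 0.49 in BR200 (SE 0.105, adjusted p = 0.0185) and 0.85 in BR100 (SE 0.105, adjusted p = 0.00376), so the direction of LAMC1 depends on the probe set, and the cause was not tested. LAMA5 (chr20:62309065-62367312), an alpha chain of intestinal basement membrane, read 9.69 and 9.99 in BR200, 9.33 and 9.73 in BR100, and 10.03 and 10.07 in wild type. It was lower in BR100 (log2 change -0.52, SE 0.109, adjusted p = 0.0134; called in 10 of 13 alternative settings) and not called in BR200 (-0.21, adjusted p = 0.153).

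Promoter sequences of the 3 laminin genes called in both variants, and of COL4A2, are printed because these genes moved in different directions or, for COL4A2, because its start adjoins that of a neighbour read at background. They are 300-base RefSeq windows of GRCh38.p14 around the annotated start, written 5′ to 3′ on the gene's own strand, with capitals marking each GC box (GGGCGG or its reverse complement). LAMB3 lies at chr1:209652376-209652675 on the minus strand, and RefSeq lists 3 starts for it, of which this is the furthest upstream. LAMC1 lies at chr1:183023170-183023469 on the plus strand, LAMB1 at chr7:108003112-108003411 on the minus strand and COL4A2 at chr13:110307034-110307333 on the plus strand.
LAMB3: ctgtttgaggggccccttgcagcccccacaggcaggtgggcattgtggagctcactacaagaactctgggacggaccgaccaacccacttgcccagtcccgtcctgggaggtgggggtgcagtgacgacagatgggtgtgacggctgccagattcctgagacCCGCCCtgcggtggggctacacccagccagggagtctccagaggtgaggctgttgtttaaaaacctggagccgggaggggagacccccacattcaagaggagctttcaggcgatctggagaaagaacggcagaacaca
LAMC1: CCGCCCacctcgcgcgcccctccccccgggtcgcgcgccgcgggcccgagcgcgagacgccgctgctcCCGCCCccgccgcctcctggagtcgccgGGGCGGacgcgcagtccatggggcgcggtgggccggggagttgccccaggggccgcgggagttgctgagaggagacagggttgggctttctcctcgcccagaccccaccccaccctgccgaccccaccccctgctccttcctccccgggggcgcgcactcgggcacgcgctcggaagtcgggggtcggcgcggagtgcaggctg
LAMB1: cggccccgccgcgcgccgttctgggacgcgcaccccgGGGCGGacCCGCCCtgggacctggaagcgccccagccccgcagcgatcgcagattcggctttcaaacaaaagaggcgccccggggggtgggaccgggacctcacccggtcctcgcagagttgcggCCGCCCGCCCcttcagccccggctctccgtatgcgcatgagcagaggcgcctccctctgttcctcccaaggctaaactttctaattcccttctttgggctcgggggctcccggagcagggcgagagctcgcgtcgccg
COL4A2: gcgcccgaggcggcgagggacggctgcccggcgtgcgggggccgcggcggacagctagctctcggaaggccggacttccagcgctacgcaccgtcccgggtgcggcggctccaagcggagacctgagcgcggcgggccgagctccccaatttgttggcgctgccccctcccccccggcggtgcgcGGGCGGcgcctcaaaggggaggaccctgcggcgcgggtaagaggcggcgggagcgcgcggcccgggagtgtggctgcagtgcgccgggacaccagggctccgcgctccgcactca

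LAMB3 holds 1 GC box, LAMC1 holds 3, LAMB1 holds 4 (of which 2 overlap) and COL4A2 holds 1. A GC box stands in 45.0% of the 35116 RefSeq windows of this length. The AP-1 motif TGANTCA, searched on both strands, is in none of these 4 windows and in 7.71% of all windows. The GC content is 61.3% for LAMB3, 79.0% for LAMC1, 71.0% for LAMB1 and 77.7% for COL4A2. The COL4A2 window shares 226 bases with that of COL4A1, whose start lies 127 bases away on the opposite strand. A motif match describes the letters of the window and nothing more.

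Of the collagens, COL9A3 and COL8A1 separated the selected variants from each other rather than from wild type together. COL9A3 (chr20:62816213-62841159), a chain of the cartilage collagen that sits on fibrils, read 6.76 and 6.72 in BR200, 5.04 and 5.10 in BR100, and 7.18 and 6.81 in wild type. It was 3.79-fold lower in BR100 (log2 change -1.92, SE 0.125, adjusted p = 0.000444) and not called in BR200 (-0.25, adjusted p = 0.14). COL8A1 (chr3:99638594-99799217), a short-chain network collagen, read 4.72 and 4.22 in BR200, 2.28 and 2.29 in BR100, and 2.24 and 2.28 in wild type. It was tested only because both BR200 arrays passed the filter, and its change of 2.21 in BR200 (SE 0.159, adjusted p = 0.00064) is measured from background, so that the filter fixes its direction, its size depends on the background estimate and it is given as a description. Its other 2 probe sets stayed at 2.23.

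COL16A1 (chr1:31652263-31704017), another fibril-associated collagen, read 8.86 and 8.63 in BR200, 8.45 and 8.32 in BR100, and 9.15 and 8.93 in wild type. BR100 lay below both other variants, with a change of -0.66 (SE 0.0683, adjusted p = 0.00155), and BR200 lay below wild type (-0.29, SE 0.0683, adjusted p = 0.019; called in 9 of 14 alternative settings). COL4A2 (chr13:110307284-110513209), a basement membrane network chain, read 6.92 and 6.68 in BR200, 7.31 and 7.28 in BR100, and 7.27 and 7.55 in wild type. It was lower in BR200 (log2 change -0.61, SE 0.141, adjusted p = 0.0183; called in 11 of 14 alternative settings) and not called in BR100 (-0.12, adjusted p = 0.499). It was read while COL4A1, its usual partner chain and divergent neighbour, stayed at the lowest value, although a second COL4A2 probe set reached only 2.65.

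COL7A1, the anchoring fibril collagen beneath epithelia, read 4.84 and 4.53 in BR200, 4.65 and 4.19 in BR100, and 4.25 and 4.15 in wild type. It rose in BR200 by 0.49 (SE 0.107, adjusted p = 0.0159), close to the filter and called in 7 of 12 alternative settings, and was not called in BR100 (0.22, adjusted p = 0.137). COL1A1 (chr17:50184101-50201631) read 5.60 and 5.60 in BR200, 5.36 and 5.59 in BR100, and 5.81 and 5.80 in wild type, on a probe set whose name marks it as able to cross-hybridise. Its call in BR100 (-0.33, SE 0.0927, adjusted p = 0.0323) stood in 3 of 11 alternative settings, and the other 4 COL1A1 probe sets read 3.22 or less. COL18A1, the basement membrane collagen that yields endostatin, was not called in either variant on the probe set used (0.26 in BR200 and -0.07 in BR100), but a second probe set was higher in BR200 (0.85, SE 0.155, adjusted p = 0.012) and not called in BR100 (0.26). COL27A1, a fibrillar collagen of cartilage, was not called either (-0.53 in BR200 and 0.08 in BR100), but a second probe set was lower in BR200 (log2 change -1.13, SE 0.145, adjusted p = 0.0045).

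Set against BR100, 6 of the 22 genes were higher in BR200 (27.3%) and 0 were lower, where 6.39% of all genes were higher and 4.23% lower. These counts rest on the probe set used for each gene. With each probe set tested on its own, a second COL27A1 probe set was called lower in BR200 than in BR100 (-1.39, SE 0.145, adjusted p = 0.0285). Of the 22 differences 18 were positive, where 47.0% of all genes were. At an unadjusted limma p under 0.05 the counts were 10 higher and 2 lower, where 15.6% of all genes were higher and 15.8% lower. The median difference was 0.27 for the members and -0.01 for all genes. The 6 were COL8A1 (2.18, SE 0.159, adjusted p = 0.00871), COL9A3 (1.67, SE 0.125, adjusted p = 0.00877), ITGA1 (0.71, SE 0.0981, adjusted p = 0.0289), LAMB3 (0.57, SE 0.0917, adjusted p = 0.038), LAMB1 (0.39, SE 0.0698, adjusted p = 0.0444) and COL16A1 (0.36, SE 0.0683, adjusted p = 0.0479). For LAMB3 the difference means a smaller fall in BR200, and for LAMB1 a larger rise. Only COL8A1 and COL9A3 differed by at least 2-fold (9.09% of members, against 2.39% of all genes). Without COL8A1, which had to differ, 5 of 21 were higher (23.8%) and 1 was at least 2-fold (4.76%). These calls were the least stable of the 3 comparisons: 2 calls were made when the kit was not in the model, and leaving out any BR200 or BR100 array left 0, and either wild type array left 1.

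Counted by probe set rather than by gene, 23 of 35 tested member probe sets were called in BR200 against wild type (59.6% of all probe sets), 20 in BR100 against wild type (62.8%) and 4 in BR200 against BR100 (5.70%). A second COL27A1 probe set, lower in BR200 than in BR100, was among those 4. Several tested probe sets were available for 10 of the genes. In each comparison 7 of those 10 had probe sets of a single sign and 3 did not. LAMC1 had calls in opposite directions in both variants and ITGA1 in BR100. The probe sets of ITGB1, ITGB4 and LAMB1 moved one way: for ITGB4 the second gave -0.54 in BR200 and -0.64 in BR100, and for ITGB1 a second gave -0.58 in BR200 and -0.74 in BR100.

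**Figure D3:**
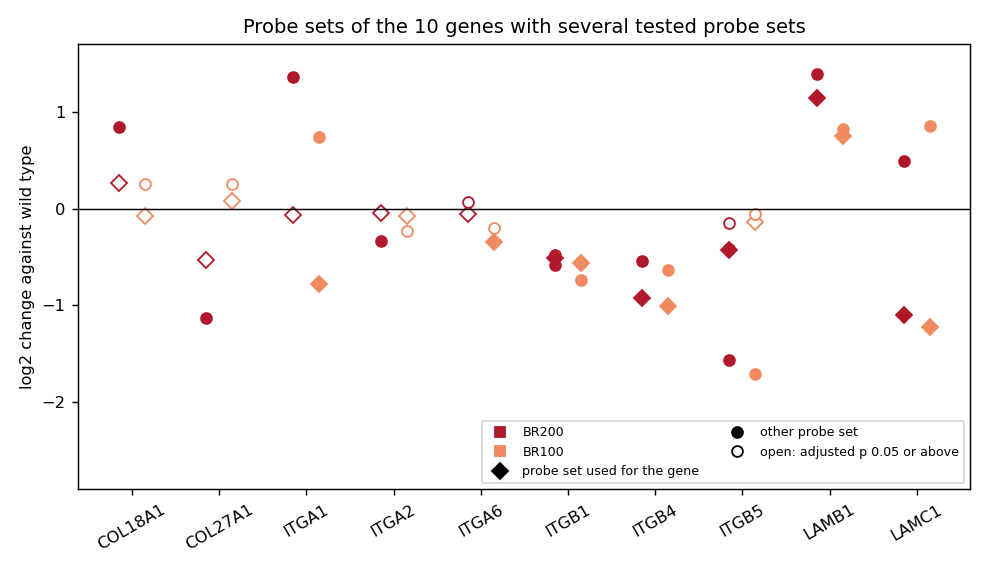
Log2 change against wild type of each tested probe set for the 10 genes with several, in BR200 and BR100; diamonds are the probe set used for the gene. LAMC1 and ITGA1 have probe sets on both sides of zero, and those of LAMB1, ITGB1 and ITGB4 lie on one side.

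The intracellular partners of integrins were called in both directions. Of 14 tested genes of the adhesion complex (24 listed), 7 were higher and 4 lower in BR200, and 7 higher and 3 lower in BR100. Among all genes 35.4% were higher and 31.2% lower in BR200, and 36.7% higher and 31.8% lower in BR100. The median change of the list was 0.29 in BR200 and 0.57 in BR100. TNS4, a tensin that binds integrin beta tails, read 9.49 and 9.79 in BR200, 9.27 and 9.37 in BR100, and 6.74 and 6.40 in wild type. Its rise was 3.07 in BR200 (SE 0.168, adjusted p = 0.00034) and 2.75 in BR100 (SE 0.168, adjusted p = 0.000392), larger than that of any integrin. VCL, the actin-linking vinculin, was also higher, by 1.51 in BR200 and 1.35 in BR100. The kinase SRC was lower, with changes of -1.58 in BR200 and -1.44 in BR100, and so was ZYX, zyxin, with -1.29 in BR200 and -1.60 in BR100. ZYX read 6.65 and 8.81 in BR200, 6.37 and 8.47 in BR100, and 8.06 and 9.98 in wild type. It was lower within each kit, but across kits its arrays overlapped wild type. Of 4 hemidesmosome and laminin receptor genes outside the integrins, PLEC, which links ITGB4 to keratin, changed by -1.07 in BR200 and -0.88 in BR100. PLEC read 7.93 and 9.80 in BR200, 8.28 and 9.83 in BR100, and 8.95 and 10.91 in wild type. Its fall likewise held within each kit, with overlap across kits. The tetraspanin CD151 changed by -0.57 in BR200 and -0.37 in BR100. The laminin receptor BCAM was higher, by 0.63 in BR200 and 0.76 in BR100.

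The enzymes and chaperones that fold and cross-link collagen showed no common direction. Of 15 tested (25 listed), 4 were higher and 5 lower in BR200, and 4 higher and 7 lower in BR100. The shares over all genes were 35.4% higher and 31.2% lower in BR200, and 36.7% and 31.8% in BR100. CRTAP, part of the prolyl 3-hydroxylase complex, was higher by 1.55 in BR200 and 1.73 in BR100, and the cross-linking oxidase LOXL1 by 1.21 in BR200 and 2.07 in BR100. The lysyl hydroxylase PLOD3 changed by -1.02 in BR200 and -0.84 in BR100. SERPINH1, named after its values were seen, was called in opposite directions (-0.28 in BR200 and 0.30 in BR100). LOXL4, P4HA2, PLOD2 and PCOLCE2 passed the test in a single variant: LOXL4 (0.93 in BR200 and -0.03, not called, in BR100), P4HA2 (-0.26, not called, in BR200 and -0.97 in BR100), PLOD2 (0.10, not called, in BR200 and -0.93 in BR100) and PCOLCE2, named after its values were seen (-0.23, not called, in BR200 and -0.58 in BR100). Of the non-integrin collagen receptors MRC2 alone was tested, and it was not called (0.10 in BR200 and 0.02 in BR100).

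Of the matrix ligands of integrins and basement membrane components outside these families, 10 were tested (17 listed). In BR200, 3 were higher and 4 lower, and in BR100, 2 were higher and 6 lower. All genes gave 35.4% higher and 31.2% lower in BR200, and 36.7% and 31.8% in BR100. FN1, fibronectin, read 8.46 and 8.52 in BR200, 7.80 and 7.73 in BR100, and 3.50 and 3.78 in wild type, below the filter in wild type only. The rise was 4.86 in BR200 (SE 0.107, adjusted p = 9.06e-05) and 4.13 in BR100 (SE 0.107, adjusted p = 8.42e-05), measured from near background. ITGA5, the chain of the classical fibronectin receptor, stayed under the filter in all variants, as given above. NPNT, nephronectin, changed by -2.23 in BR200 and -2.17 in BR100. LTBP1, which tethers latent TGF-beta, changed by -1.80 in BR200 and -2.13 in BR100. It passed the filter on the wild type arrays alone, so the filter fixes its direction and its sizes depend on the background estimate. LTBP1 is included in the 4 lower in BR200 and the 6 lower in BR100, and its falls are given as a description. CCN2 read 6.13 and 6.12 in BR200, 2.94 and 2.94 in BR100, and 6.97 and 6.53 in wild type, so that only BR100 was near background. CCN1, named after its values were seen, was called in opposite directions (0.62 in BR200 and -0.99 in BR100). THBS1 changed by 1.41 in BR200 and 0.50 in BR100. It read 8.62 and 7.02 in BR100 and 7.85 and 6.80 in wild type, which overlap across kits. Tenascin-C (TNC) changed by -1.12 in BR200 and -3.58 in BR100, and TGFB1 by -0.40 (not called) in BR200 and -2.44 in BR100. In BR100, TNC was below the filter on both arrays (3.34 and 3.03) and TGFB1 read the lowest value on the Express array and 5.17 on the other, so these sizes depend on the background estimate too. Of these 10 genes, 6 were called higher in BR200 than in BR100 (6.39% of all genes were), CCN2 (3.18, adjusted p = 0.0044) and TNC (2.46, adjusted p = 0.00659) among them, but leaving out any BR200 or BR100 array left 0 calls and either wild type array left 1.

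Of 7 tested matrix proteases and their inhibitors (19 listed), 1 was higher and 4 lower in BR200, and 2 higher and 4 lower in BR100. Over all genes 35.4% were higher and 31.2% lower in BR200, and 36.7% and 31.8% in BR100. MMP7, the epithelial matrilysin, read 13.77 and 13.82 in BR200, 13.95 and 13.94 in BR100, and 10.91 and 11.05 in wild type. It was higher by 2.81 in BR200 (SE 0.0739, adjusted p = 0.000113) and by 2.96 in BR100 (SE 0.0739, adjusted p = 8.08e-05). PLAUR, the urokinase receptor, changed by -3.02 in BR200 and -4.00 in BR100. TIMP4, a metalloprotease inhibitor, changed by -4.91 in BR200 and -6.00 in BR100, where it fell to near background. TIMP1 changed by -1.18 in BR200 and -1.02 in BR100, and TIMP2 by -0.46 in BR200 and -1.30 in BR100.

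**Figure D4:**
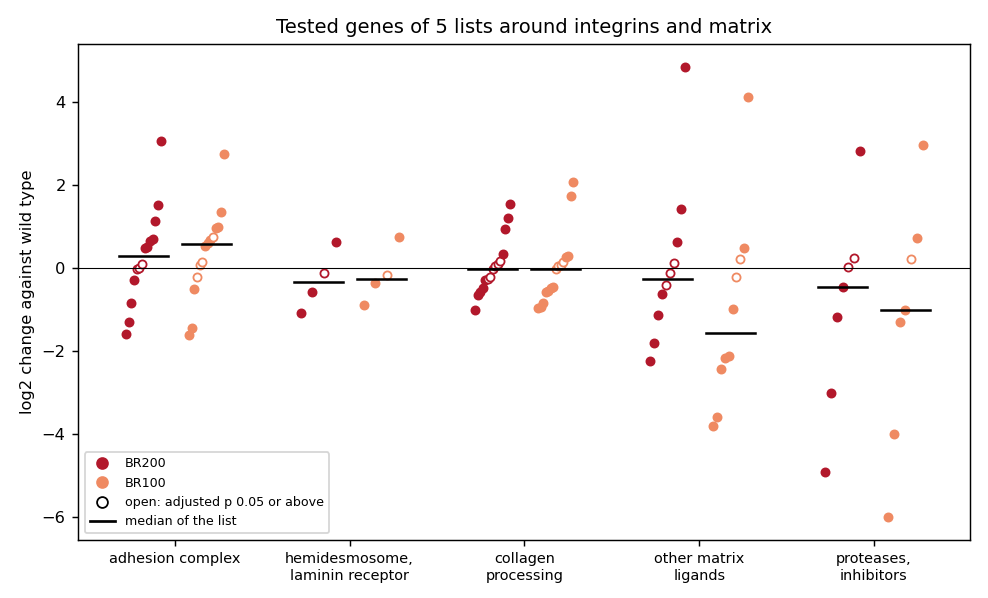
Log2 change against wild type of the tested genes of the adhesion complex, hemidesmosome, collagen processing, other matrix ligand and protease lists in BR200 and BR100, with the list medians marked. Each list holds genes on both sides of zero, and FN1, MMP7 and TNS4 lie highest while TIMP4 and PLAUR lie lowest.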

How the data were processed

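RNA of 3 HT-29 variants was measured on 6 arrays, 2 per variant. The deposited values are log2 expression, 1 per probe set for 54675 probe sets, made by the authors with GCRMA per the submitters' processing notes, whose version is not given in the sources used here; GCRMA corrects background, normalizes across arrays and summarises probes. The deposited table holds no detection calls, and the number of arrays limits the precision. Probe sets naming 1 gene (41097) were kept, and those naming several (1801) or none (11777) were left out. The probe set with the highest mean stood for its gene. Genes at a log2 value of 4 or more on at least 2 arrays were tested (10370 of 19775).

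All 6 arrays entered a single limma 3.58.1 model in R 4.3.3, with variant and labelling kit as terms, eBayes, two-sided tests and Benjamini-Hochberg adjustment over all genes tested. It had 2 residual degrees of freedom and 2.33 added by eBayes. The kit is the replicate block and, per the labels, pairs the arrays: the Express minus One-Cycle differences of 2 variants correlated at 0.762 to 0.845 across 10370 genes. Array values were given for members called at 2-fold or more and for a fixed set of other members. They were also given for members outside that set, such as ITGAE, ITGA1, COL16A1, COL7A1, ITGA5 and ITGB7. For each partner list they were given for up to 4 genes per comparison with the largest called changes. Members and lists were chosen with earlier results of these data known. Alternatives left out the kit block, each array in turn or shared probe sets, averaged probe sets, changed the filter, centred the arrays or let the prior variance follow the mean. The statistics were tested on simulated data. Positions and promoters are from RefSeq (GRCh38.p14), which matched all 79 symbols and held promoters for 17 of the 22 tested genes.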

Additional observations from a re-analysis of the deposited data

Results flagged for a closer look

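For 6 genes the change against wild type differed between BR200 and BR100 by limma's test of that difference. The BR200 minus BR100 difference on the log2 scale was 2.18 for COL8A1 (adjusted p = 0.00871), 1.67 for COL9A3 (adjusted p = 0.00877), 0.71 for ITGA1 (adjusted p = 0.0289), 0.57 for LAMB3 (adjusted p = 0.038), 0.39 for LAMB1 (adjusted p = 0.0444) and 0.36 for COL16A1 (adjusted p = 0.0479). Over the alternative settings the highest adjusted p was 0.125 for COL8A1, 0.122 for COL9A3, 0.182 for ITGA1, 0.209 for LAMB3, 0.645 for LAMB1 and 0.413 for COL16A1. COL8A1 is read above the filter in BR200 only. Both variants are clonal isolates, so a difference between them cannot be told apart from a difference between clones.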

How the results depend on the processing

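Of 13 members called in each comparison with wild type, 6 in BR200 (COL8A1, ITGA3, ITGB1, LAMB1, LAMB3 and LAMC1, where the filter fixes the direction of COL8A1) and 6 in BR100 (COL16A1, COL9A3, ITGA3, ITGB1, LAMB3 and LAMC1) were called in every alternative, and 0 of the 6 called between BR200 and BR100 were. The setting that tested each probe set followed only the probe set used for a gene, and the other LAMC1 probe set was called higher in both variants. With no replicate block (kit left out) the counts of called members were 8 in BR200, 7 in BR100 and 2 between them. Leaving out 1 array gave 10 to 13 in BR200, 10 to 12 in BR100 and 0 to 1 between them, where the lone array left in a variant is assumed to vary like the others. Between BR200 and BR100 the count was 0 without replicate 1 or replicate 2 of either variant (limma; 7 to 9 at an unadjusted p under 0.05) and 1 without either wild type array. It was 3 of 16 without shared or cross-hybridising probe sets, and 0 of 79 with no filter (7 at an unadjusted p under 0.05). Testing each probe set gave 23 of 35 in BR200 and 20 in BR100. Averaging the probe sets of a gene reversed ITGA1 in BR200 (0.43, adjusted p = 0.0144) and moved it to -0.01 in BR100. It moved LAMC1 to -0.30 in BR200 and -0.19 in BR100, ITGB4 to -0.31 and -0.41, and ITGB1 to -0.23 and -0.27. The average takes in every probe set of a gene. ITGA1 and LAMC1 have tested probe sets of opposite direction. For ITGB1 only 3 of 7 probe sets passed the filter, and for ITGB4 only 2 of 5, so probe sets below the filter entered their averages. Without COL8A1, an alternative chosen after seeing the data, 12 of 21 were called in BR200, 13 in BR100 and 5 between them. Over 888 gene values under alternatives, 785 kept their call status, though 22 of these, called in neither setting, changed sign. Another 92 lost the call (50 of them between BR200 and BR100), 10 gained one and 1 reversed with a call. Genes near the lowest value, such as COL8A1 and COL7A1, are limited by signal over background.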

Other observations

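Several member probe sets, those tested for ITGA2 among them, differed more between labelling kits than between variants. Over the 35 tested member probe sets the Express minus One-Cycle gap had a median of -0.08 on the log2 scale and ran from -3.84, for a second ITGB4 probe set, to 3.59, for a second ITGB5 probe set, and 3 exceeded 1 in size. For the tested genes, the difference had the same sign in both kits for 19 of 22 in BR200 against wild type, 18 in BR100 against wild type and 20 in BR200 against BR100.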
